A study of Glycine max with 16 samples.

Results

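The expression of ADH2 (gene ID 100783858), an alcohol dehydrogenase, and of ALDH2B4 (gene ID 100811501), an aldehyde dehydrogenase, was followed in maturing soybean seeds grown with and without combined heat and drought. The members were the probe sets paired with exactly 1 of these genes. This rule gave 1 probe set for each, so 2 genes of the 6031 that had a probe set of their own. Both were picked with their values in these same seeds known, so their levels and differences are given as descriptions without a test.

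Alcohol dehydrogenases interconvert alcohols and aldehydes. In plant tissue short of oxygen they reduce acetaldehyde to ethanol and so return NAD+ to glycolysis, and their activity is long known from developing, imbibing and flooded seeds. Aldehyde dehydrogenases oxidise aldehydes to acids. The 2B subfamily, to which ALDH2B4 belongs by its name, is known in Arabidopsis as mitochondrial and as able to turn acetaldehyde into acetate. Other aldehyde dehydrogenases handle betaine aldehyde and aminoaldehydes, succinic semialdehyde from the GABA shunt, or aldehydes from lipid peroxidation, and several are known to respond to drought and salt.

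All seeds came from the soybean cultivar MG/BR 46 (Conquista), which is susceptible to retaining chlorophyll under stress. Stressed plants were moved at late seed filling to a hotter greenhouse, where days averaged 39.5 °C, and received water only once they wilted, while non-stressed plants stayed in normal growth conditions. Whole seeds were taken at 3 stages, R6 (full green seed), R7 (start of maturity) and R8 (full maturity), with at least 50 seeds per sample according to the labels. There were 3 arrays of stressed and 3 of non-stressed seeds at R6, 3 of stressed and 2 of non-stressed seeds at R7, and 3 of stressed and 2 of non-stressed seeds at R8. Replicates were pairs of pots, so the errors and p-values cover the spread between such pairs only. Seeds were sorted by colour after harvest to narrow their range of maturity, and the study took its R7 seeds to be mixed in maturity nonetheless. The cultivar, the greenhouse and the watering are shared by all seeds of an environment, and heat and drought cannot be told apart.

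Signals are log2 values, in which a difference of 1 is 2-fold. The 16 arrays had between 14068 and 15403 soybean probe sets above a signal of 3. The 23394 probe sets for other organisms gave a background, with 99% of them at or below 1.42. Storage protein and inhibitor genes of the embryo were above that level in every group for the 6 of 9 listed markers that had a probe set, as fits the label of seed. The vegetative marker VSPA was at background in all groups, and 0 of 6 root nodule markers had a probe set. Of the 5 seed coat markers 3 were above background in stressed and 4 in non-stressed R6 seeds, and 1 in stressed and 1 in non-stressed R8 seeds. The replicate 3 array of stressed R6 seeds stood apart from its group, with a mean correlation of 0.958, the lowest of all 16. The non-stressed R7 arrays had ribosomal RNA signals of 6.94 ± 0.90 (SD, n = 2), against 8.32 to 9.05 for the means of the other groups. Their actin signal fell more steeply from the 3′ to the 5′ end (3.72 ± 0.76, against group means of 1.75 to 2.60), which is a measure of RNA quality.

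ADH2 was expressed strongly in seeds of either environment at R6, and stayed much higher in stressed seeds at R8. At R8 stressed seeds had signals of 8.94, 9.17 and 8.94, and non-stressed seeds 5.94 and 6.10. No stressed array came near a non-stressed one, and the gap between the groups was 2.84. The means were 9.02 ± 0.13 (SD, n = 3) in stressed and 6.02 ± 0.11 (SD, n = 2) in non-stressed seeds, a difference of 2.99 (SE 0.11) or 7.97-fold. Fewer cells that express the gene and less transcript per cell cannot be told apart in whole seeds. At R8, 8.51% of all 19194 kept probe sets passed an adjusted p of 0.05 together with a 2-fold change, 6.01% upwards and 2.50% downwards. As a description only, since these values chose ADH2, its difference was matched or exceeded by 73 kept probe sets (0.380%), a count that includes ADH2.

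At R6 ADH2 had signals of 10.95, 10.94 and 10.92 in stressed seeds, and 10.77, 10.68 and 10.73 in non-stressed seeds. The groups did not overlap, yet the difference was only 0.21 (SE 0.10), or 1.16-fold. At R7 stressed seeds had 9.96, 10.08 and 10.20, and non-stressed seeds 10.38 and 10.08. These groups overlapped and the means differed by -0.15 (SE 0.12). The response to stress at R8 exceeded that at R6 by 2.78 (SE 0.14). At R8 1153 of the 19194 kept probe sets were called higher in stressed seeds. Of these, 627 had a difference of less than 1 at both earlier stages. ADH2 was 1 of the 29 among them that differed at R8 by at least as much as it did. This count is a description only, since its limits follow the values of ADH2, which were known when it was picked. The background for each comparison, at the same limits, was 14.9% at R6 (7.54% higher), 18.6% at R7 (6.62% higher and 11.9% lower) and 20.3% for the R8 response minus the R6 response (11.4% higher and 8.84% lower).

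**Figure D1:**
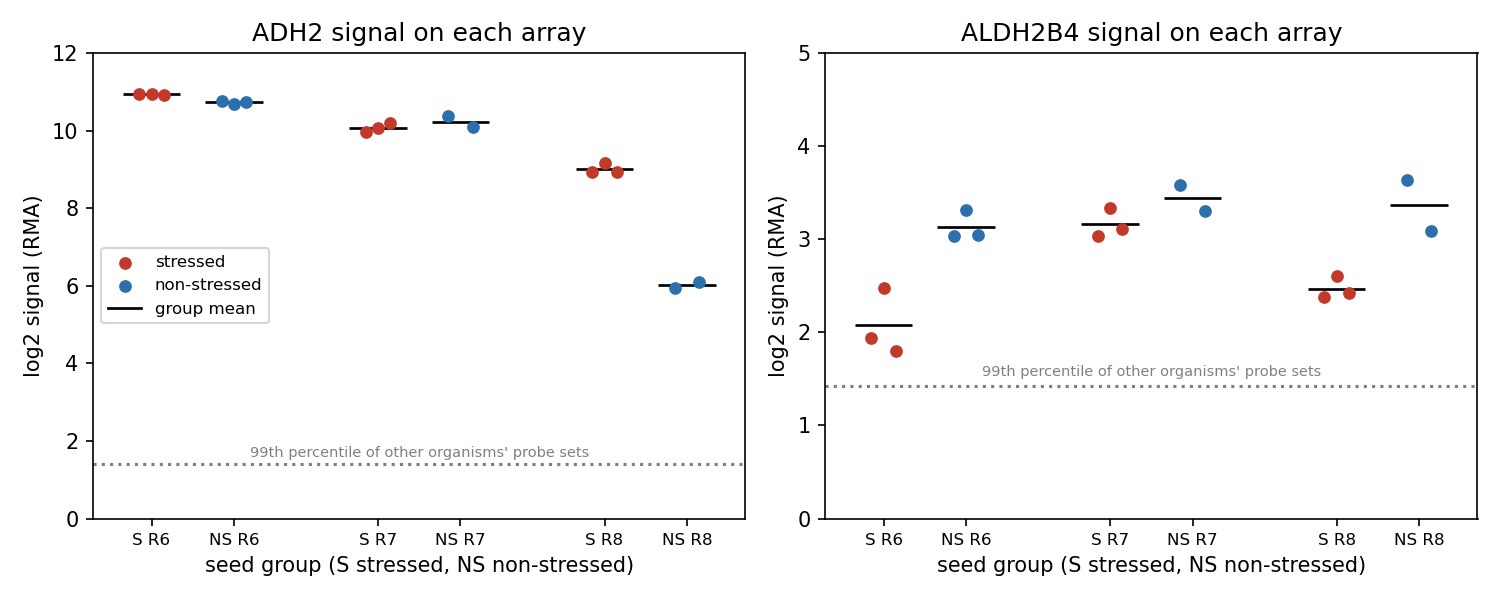
Log2 signal (vertical axis) of ADH2 and ALDH2B4 on each of the 16 arrays, in stressed (S, red) and non-stressed (NS, blue) seeds at R6, R7 and R8. Black bars are group means and the dotted line is the background of 1.42. ADH2 stands at 9.02 in stressed and 6.02 in non-stressed R8 seeds, while ALDH2B4 is near 2 to 3.6 throughout.

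The steps of ADH2 over maturation lay farthest apart between the environments after R7. In stressed seeds its means ran 10.94 at R6, 10.08 at R7 and 9.02 at R8, steps of -0.86 (SE 0.11) and -1.06 (SE 0.11). In non-stressed seeds the means ran 10.73, 10.23 and 6.02, steps of -0.50 (SE 0.12) and -4.21 (SE 0.14). The last of these was 18.5-fold, while the same step in stressed seeds was 2.09-fold. Both non-stressed steps rest on the non-stressed R7 arrays, whose actin and ribosomal RNA signals stood apart from the other groups. The study also took its R7 seeds to be mixed in maturity. How far this bears on the timing of the fall was not tested. R8 seeds were lower than R6 seeds by 3.79-fold under stress and by 26.1-fold without it. Between R8 and R6 54.4% of probe sets in stressed seeds (27.3% higher and 27.1% lower) and 62.8% in non-stressed seeds (32.5% higher and 30.3% lower) were called. The non-stressed fall of ADH2 was matched or exceeded by 607 probe sets (3.16%).

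In order of level, ADH2 was highest in stressed R6 seeds, then in non-stressed R6, non-stressed R7, stressed R7, stressed R8 and non-stressed R8 seeds. The pooled SD within groups was 0.11, and only the R7 neighbours had overlapping arrays. Embryo reserve transcripts as a sum were also higher in stressed seeds at R8, though the markers did not move alike. GY5 averaged 11.2 in stressed and 7.3 in non-stressed R8 seeds, while CG-BETA-1 averaged 9.7 and 9.5. The log2 of the summed signals of the 6 measured reserve markers was 13.87 to 13.95 in stressed and 11.36 to 12.42 in non-stressed R8 seeds. At R7 it was 12.29 to 12.91 in stressed and 14.21 to 14.35 in non-stressed seeds, where the ADH2 arrays overlapped. The part of the reserve genes' shift in the result for ADH2 was not tested.

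ALDH2B4 was measured at low signals, above the background of 1.42 on all 16 arrays but never above 3.64. At R6 it had signals of 1.94, 2.47 and 1.80 in stressed seeds, and 3.03, 3.31 and 3.05 in non-stressed seeds. Every stressed array was below every non-stressed one, by a gap of 0.56. The means were 2.07 ± 0.35 in stressed and 3.13 ± 0.16 in non-stressed seeds (SD, n = 3 each), a difference of -1.06 (SE 0.19) and 2.08-fold lower under stress. Of all probe sets 14.9% were called at R6, and 7.34% were called lower. The size lies close to 2-fold, and it fell short of that without stressed R6 replicate 3 (-0.92), without stressed R6 replicate 1 (-0.99) or without non-stressed R6 replicate 2 (-0.97).

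At R7 ALDH2B4 had 3.04, 3.34 and 3.11 in stressed seeds and 3.58 and 3.30 in non-stressed seeds. The arrays overlapped and the means differed by -0.28 (SE 0.21). At R8 stressed seeds had 2.38, 2.60 and 2.42, and non-stressed seeds 3.64 and 3.09. Again no array of stressed seeds reached a non-stressed one, with a gap of 0.49, and the difference of -0.90 (SE 0.21) was 1.86-fold lower, short of the 2-fold limit. It was -1.17 without non-stressed R8 replicate 2 and -0.62 without replicate 1. The responses at R8 and R6 differed by 0.16 (SE 0.29). As a description only, its difference was matched or exceeded downwards by 1285 kept probe sets (6.70%) at R6. The counts were 7251 (37.8%) at R7 and 709 (3.69%) at R8, and each count includes ALDH2B4.

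Between R8 and R6 ALDH2B4 stayed within 2-fold. R8 seeds exceeded R6 seeds by 0.39 (SE 0.19) under stress and by 0.23 (SE 0.21) without it, with overlapping arrays in either case. In between, stressed seeds had a step of 1.09 (SE 0.18) to R7 and of -0.70 (SE 0.18) to R8. Non-stressed seeds had steps of 0.31 (SE 0.21) and -0.08 (SE 0.23). The means ordered as non-stressed R7, non-stressed R8, stressed R7, non-stressed R6, stressed R8 and stressed R6. Neighbours among the first 4 of these groups overlapped and differed by 0.20 or less, under the pooled SD of 0.24. Stressed R8 and stressed R6 seeds overlapped as well, with means 0.39 apart. Seed coat markers also differed at R6, with summed signals of 5.86 to 6.67 in stressed and 9.25 to 9.84 in non-stressed seeds, but not all in one direction. HPS averaged 5.72 in stressed and 9.36 in non-stressed R6 seeds, SCB1 averaged 1.84 and LAR1 0.25 in stressed seeds, against 5.72 for SCB1 and 3.06 for LAR1 in non-stressed seeds. Ep went the other way, with 4.31 in stressed and 2.14 in non-stressed seeds, and ANR1 was at background in both. At R8 4 of the 5 were at background in both environments, and HPS averaged 1.79 in stressed and 1.55 in non-stressed seeds. The part of the seed coat in the R6 and R8 results was not tested.

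**Figure D2:**
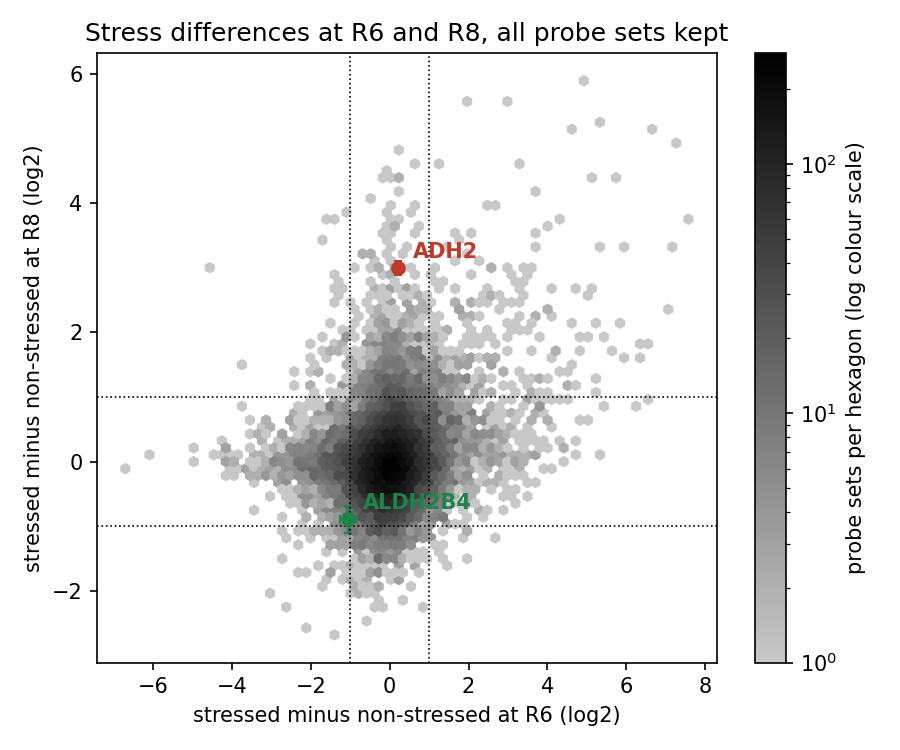
Stressed minus non-stressed log2 signal at R6 (horizontal axis) and at R8 (vertical axis) for the 19194 kept probe sets, as hexagons shaded by their number. ADH2 lies at 0.21 and 2.99, and ALDH2B4 at -1.06 and -0.90, with bars for the standard error and dotted lines at a 2-fold change.

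The genes with levels most like ADH2 over the 16 arrays, among 696 named genes, were the Bowman-Birk protease inhibitor BBI (r = 0.994), its relative D-II (0.989), the basic 7S globulin BG7S-2 (0.984), the 2S albumin GM2S-1 (0.977) and the cysteine protease inhibitor CYSTATIN (0.977). They were chosen by this likeness, and the arrays share the stages, so r is a description. The rank correlation (Spearman rho) was lower for each, from 0.741 for BG7S-2 to 0.941 for BBI. BBI averaged 9.88 in stressed and 5.52 in non-stressed R8 seeds, and D-II averaged 9.50 in stressed and 6.05 in non-stressed R8 seeds. CYSTATIN had the smallest separation of the 5 at R8, with 7.54 in stressed and 6.33 in non-stressed seeds. In all, 23 of the 696 genes had r above 0.9, and the median r was 0.41. Most of this likeness lay between groups. Within groups r ran between -0.11 and 0.47 for the 5 genes.

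Most unlike ADH2 were the kinase gene BIN2 (r = -0.965), MYB55 (-0.946) and the glutathione S-transferase gene GSTF5 (-0.921). GSTF5 averaged 7.41 in stressed and 8.22 in non-stressed R8 seeds. For ALDH2B4 the likeness was weaker, with AAH (0.758), ACCC-2 (0.755), PGLCAT8 (0.754), HD2A (0.730) and PSAD (0.718) highest and 0 genes above 0.9. Within groups r ran from -0.535 for HD2A to 0.277 for ACCC-2. At R8 ACCC-2 (7.547 in stressed and 7.505 in non-stressed seeds) and PSAD (9.053 and 9.08) hardly differed. AAH, PGLCAT8 and HD2A were lower in stressed seeds there, as was ALDH2B4. AAH is allantoate amidohydrolase, ACCC-2 a biotin carboxylase of fatty acid synthesis, HD2A a plant histone deacetylase and PSAD a photosystem I subunit. Opposite to ALDH2B4 stood EBP (-0.926), MYB177 (-0.848) and SDP1-3 (-0.833), which is named after an Arabidopsis lipase of oil breakdown. EBP averaged 9.17 in stressed and 5.84 in non-stressed R6 seeds, and 7.48 in stressed and 5.45 in non-stressed R8 seeds. ADH2 and ALDH2B4 themselves had r = -0.31 over the 16 arrays and 0.10 within groups.

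**Figure D3:**
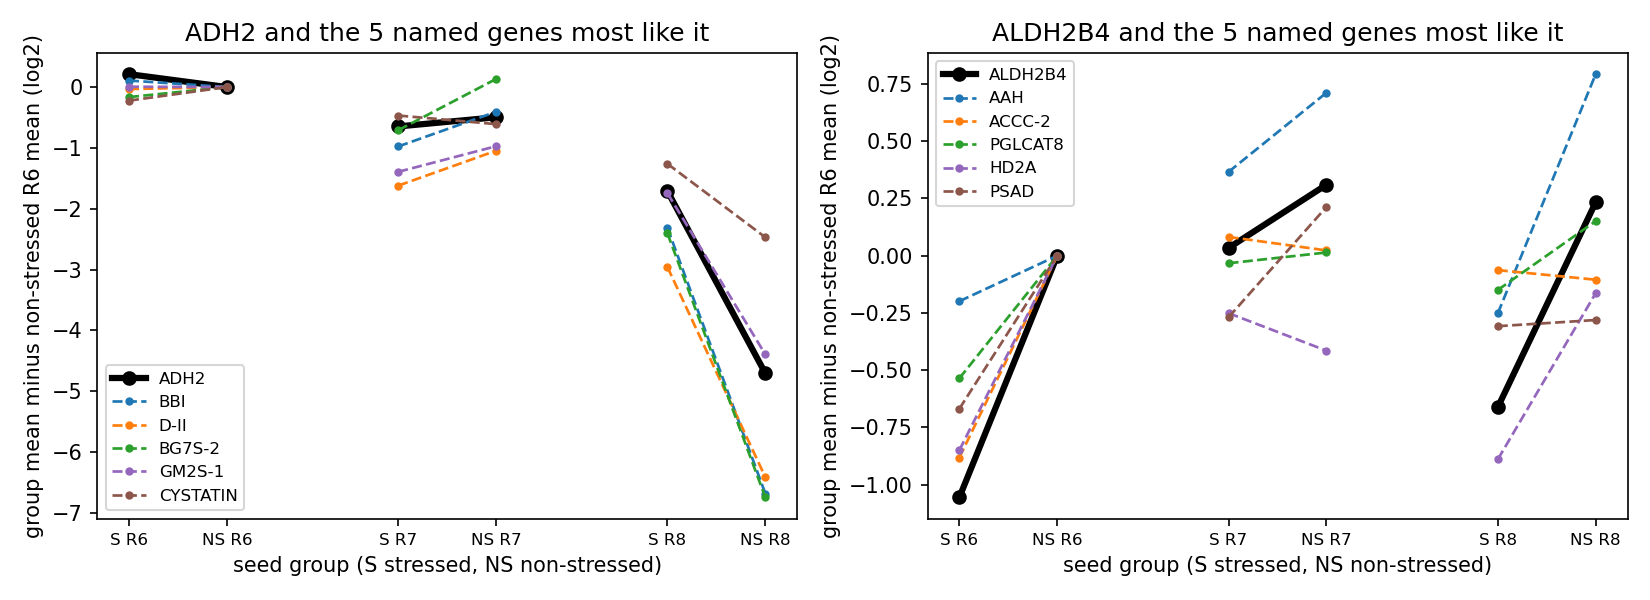
Group means as the difference from the mean of non-stressed R6 seeds (log2, vertical axis) for ADH2 with its 5 most alike genes (left) and ALDH2B4 with its own 5 (right), lines joining stressed and non-stressed seeds of one stage. On the left the non-stressed R8 point of every gene is its lowest, and on the right the stressed R6 point of ALDH2B4 is 1.06 below non-stressed R6.

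The rest of the alcohol dehydrogenase list gave no value, since ADH1, ADH3 and CAD1 had no probe set of their own. Of 50 aldehyde dehydrogenase symbols in the soybean gene table, 9 had a probe set and 7 were kept. ALDH2B4 was the 1 of 7 genes of subfamily 2B with a probe set. The other aldehyde dehydrogenases, and the genes of the lists below, were taken by name. These lists were chosen with earlier results of these data known. The limma p-values, adjusted across all kept probe sets, make no allowance for that choice.

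Among the 6 others, 1 rose and 0 fell under stress at R6, and 0 passed both limits at R7 or R8 in the limma fit. Of all kept probe sets 14.9% passed them at R6, 18.6% at R7 and 8.51% at R8, so counts this small say little about the family. Of the 6, the limma adjusted p was within 0.05 for 4 at R7 and for 3 at R8, each with a change under 2-fold. Their medians were 0.02 at R6, -0.41 at R7 and 0.42 at R8, beside 0.03, -0.06 and -0.03 for all probe sets. The one that rose was ALDH3H1, of a family that in Arabidopsis acts on aldehydes of lipid peroxidation. It had 3.45 to 4.11 in stressed and 2.03 to 2.15 in non-stressed R6 seeds, a difference of 1.69 (SE 0.16, limma adjusted p = 1.66e-05). ALDH2B4 was on the opposite side at that stage. A second probe set of ALDH3H1 gave 2.31 at R6, but at R7 the probe sets disagreed in sign, with -0.81 from the brighter and 0.82 from the other.

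ALDH10A1, of the family that oxidises aminoaldehydes and betaine aldehyde, had 8.77 to 8.90 in stressed and 8.03 to 8.07 in non-stressed R8 seeds. Its difference of 0.77 (SE 0.11, limma adjusted p = 4.48e-04) stayed under 2-fold, and a second probe set gave 0.93. Its relative ALDH10A2 differed by 0.66 at R8 (limma adjusted p = 0.0117), and ALDH5F2, of the family of succinic semialdehyde dehydrogenases, by 0.72 (limma adjusted p = 0.0133). ALDH7B1 differed by 0.18 (limma adjusted p = 0.463) and ALDH6B1, of the methylmalonate semialdehyde dehydrogenase family, by 0.10 (limma adjusted p = 0.620). With 0.11 for ALDH3H1, all 6 differences at R8 were above 0, where that of ALDH2B4 was below 0, and these differences between genes were not tested.

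**Figure D4:**
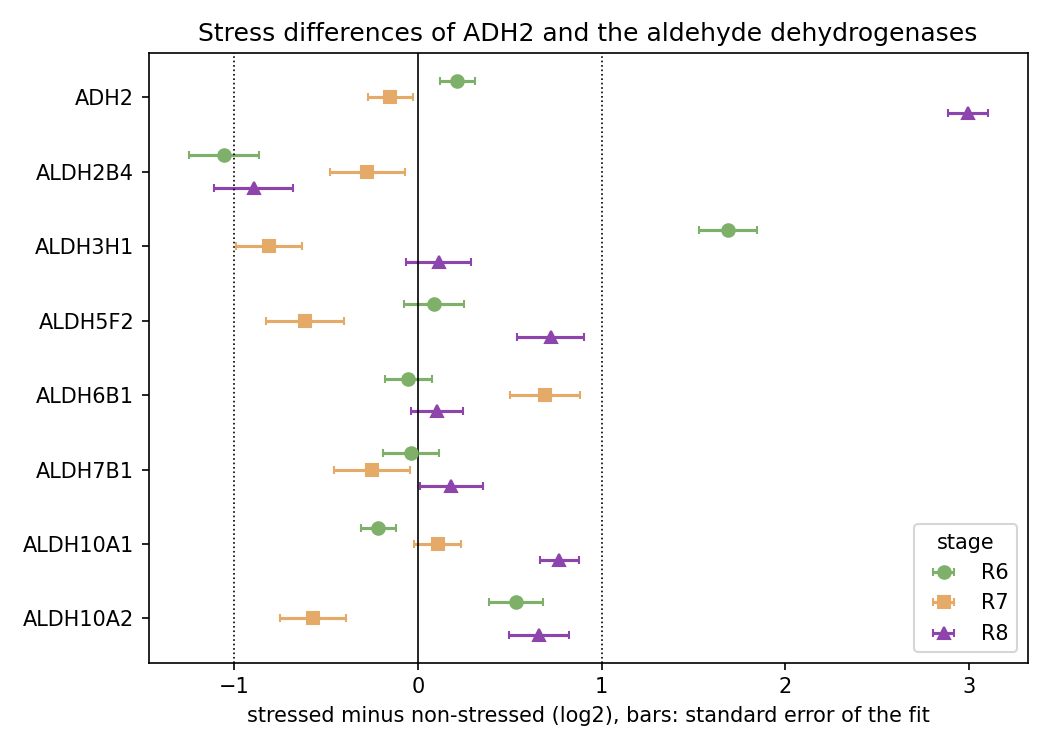
Stressed minus non-stressed log2 signal (horizontal axis, bars for the standard error) of ADH2, ALDH2B4 and the 6 other measured aldehyde dehydrogenase genes at R6, R7 and R8. ADH2 at R8 (2.99) and ALDH3H1 at R6 (1.69) lie farthest to the right, and ALDH2B4 is below 0 at all 3 stages.

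By their brightest probe sets 2 of these 6 genes rose and 2 fell between R8 and R6, in stressed as in non-stressed seeds. Of all probe sets 54.4% and 62.8% were called, so the share is near the background. The genes counted as risen include ALDH3H1, on which its probe sets disagreed. ALDH10A2 rose by 1.81 (SE 0.15) under stress and by 1.68 (SE 0.16) without it (limma adjusted p = 7.54e-07 and 2.76e-06). ALDH5F2 fell by 1.60 under stress and fell by 2.23 without it (limma adjusted p = 5.13e-06 and 7.28e-07). ALDH6B1 fell by 1.72 under stress and fell by 1.88 without it (limma adjusted p = 3.50e-07 and 3.46e-07). ALDH3H1 is not settled for maturation, because its probe sets disagreed. The brighter one gave 3.66 under stress and 5.24 without it, while the other gave -2.20 under stress and 0.03 without it. For ALDH10A1 the brighter probe set fell by 0.64 without stress and the second fell by 1.39 (limma adjusted p = 2.09e-07), past 2-fold.

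**Figure D5:**
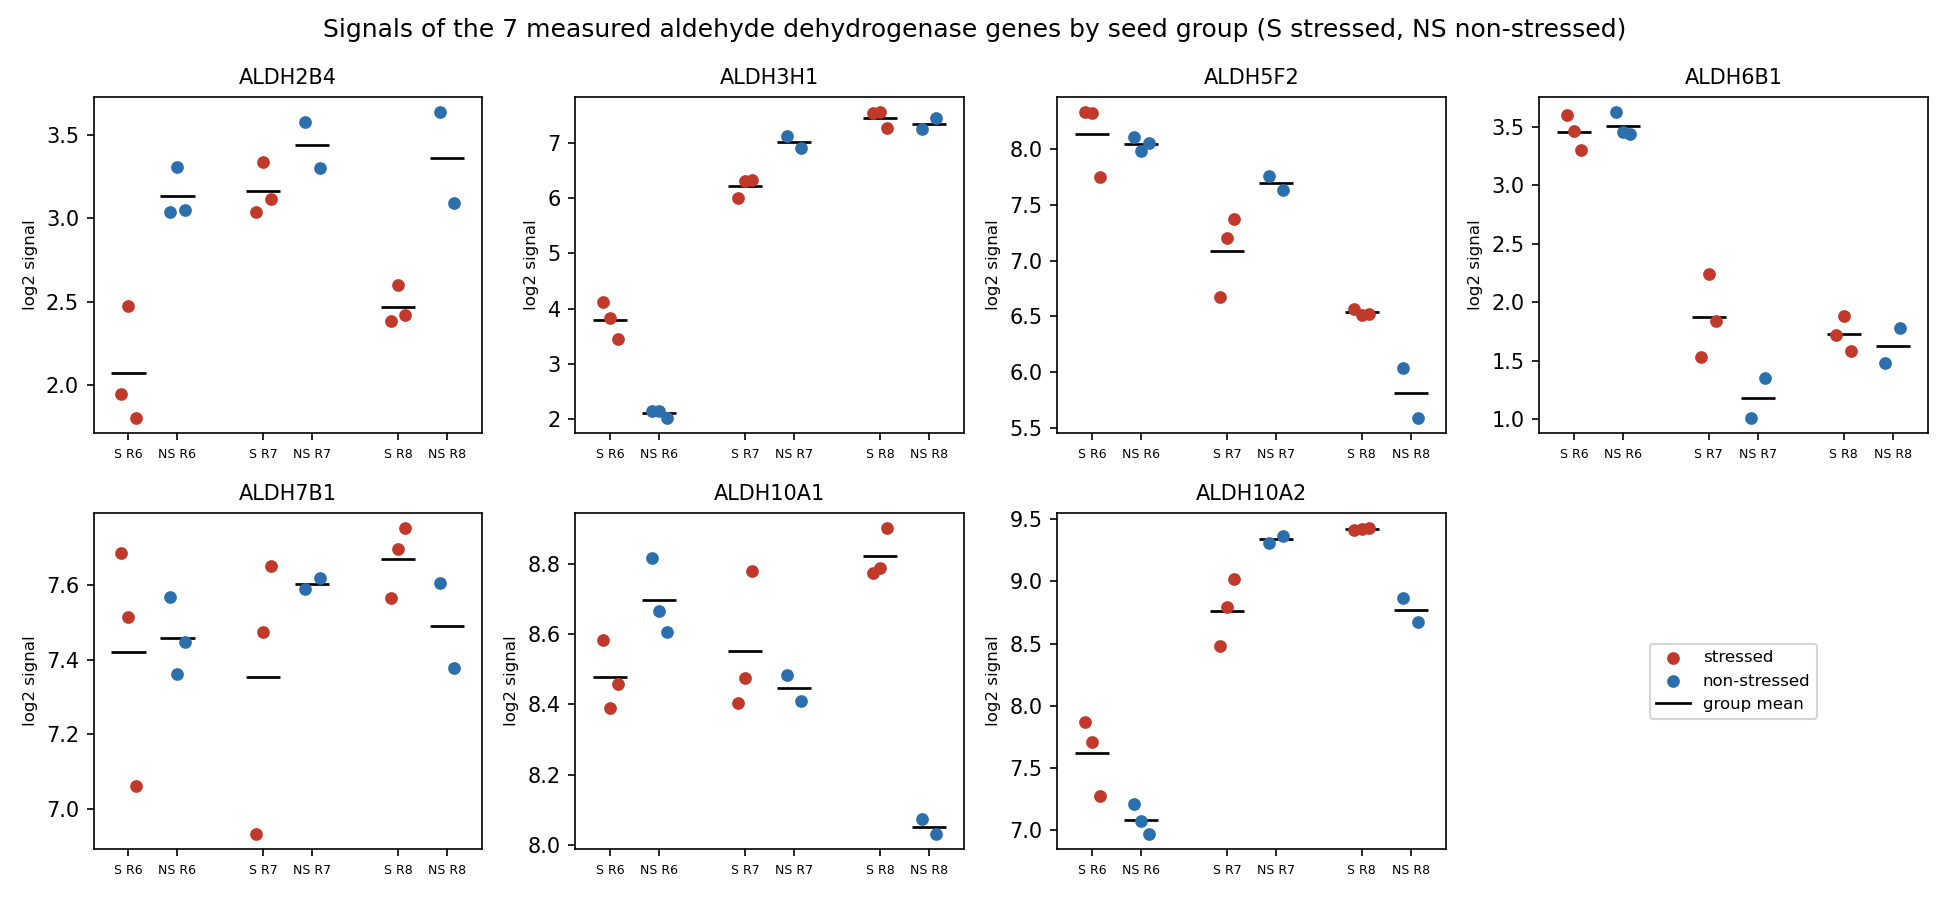
Log2 signal (vertical axes, each with its own range that does not start at 0) of the 7 measured aldehyde dehydrogenase genes on each array, with group means as black bars, in stressed (S, red) and non-stressed (NS, blue) seeds. ALDH2B4 is lower in stressed seeds at R6 and R8, while ALDH3H1 is higher in stressed seeds at R6 and ALDH10A1 at R8.

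Of 4 genes of low-oxygen metabolism 3 were kept. By their brightest probe sets 0 of these passed both limits of the limma fit under stress at R6, R7 or R8. Of all kept probe sets 14.9% passed them at R6, 18.6% at R7 and 8.51% at R8. Of these 3 genes, the limma adjusted p was within 0.05 for 2 at R6, 1 at R7 and 2 at R8, each with a change under 2-fold. Their medians were 0.22, -0.30 and 0.57 at the 3 stages. No symbol for pyruvate decarboxylase or lactate dehydrogenase, the enzymes that use pyruvate for fermentation, was found in the gene table. The alanine aminotransferase gene ALAAT1 averaged 6.74 ± 0.24 in stressed and 5.89 ± 0.10 in non-stressed R6 seeds (SD, n = 3 each), a difference that passed the adjusted p (0.85, SE 0.13, limma adjusted p = 3.54e-04), and differed by 0.57 at R8 (limma adjusted p = 0.0113), both under 2-fold. The sucrose synthase gene SS, whose enzyme feeds sucrose into glycolysis, differed by -0.57 at R6 and by 0.66 at R8. Of its other probe sets, 1 gave -1.17 at R6 (limma adjusted p = 9.75e-04), which is past both limits, and the other gave -0.78. The change in its response, 1.23 (SE 0.19, limma adjusted p = 6.93e-04), had the same sign as that of ADH2. Those of ALAAT1 (-0.276, limma adjusted p = 0.268) and ALAAT2 (-0.075, limma adjusted p = 0.881) had the opposite sign and were not called. Between R8 and R6 SS fell by 1.52 in stressed and fell by 2.75 in non-stressed seeds, and ALAAT2 fell by 1.87 in stressed and fell by 1.80 in non-stressed seeds.

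In the list of glycolysis and glyoxylate genes 6 of 9 were kept, and by their brightest probe sets 1 was called higher under stress at R6, 1 at R7 and 2 at R8, with 0 lower, beside 7.54%, 6.62% and 6.01% of all probe sets. At R7 a second probe set of GAPC1 (1.20, limma adjusted p = 7.67e-04) and a dimmer one of GAPDH (1.34, limma adjusted p = 1.85e-04) were called as well, both genes of glyceraldehyde-3-phosphate dehydrogenase in glycolysis. ICL1, isocitrate lyase of the glyoxylate cycle, which turns acetate units from oil into sugar precursors, was called at each stage. It had 6.40 to 6.99 in stressed and 1.41 to 1.91 in non-stressed R6 seeds (5.06, SE 0.20, limma adjusted p = 3.84e-08). At R7 the difference was 1.43 (limma adjusted p = 2.84e-04). At R8 it had 5.39 to 5.98 in stressed and 1.15 to 1.23 in non-stressed seeds (4.40, SE 0.22, limma adjusted p = 5.83e-07), and since the non-stressed level was at background this probe set was at least 18.0-fold higher, set against 1.42. A second probe set gave smaller differences, 3.39 at R6, 0.24 at R7 and 3.00 at R8. PEPC7, a phosphoenolpyruvate carboxylase, had 3.98 to 4.05 in stressed and 2.84 to 3.12 in non-stressed R8 seeds (1.03, SE 0.12, limma adjusted p = 1.54e-04). It was under 2-fold, at 0.90, without non-stressed R8 replicate 2. Of the other kept probe sets of PEPC7, 1 gave 1.172 at R8 and the other gave 0.725, under 2-fold. By the brightest probe sets 4 of the 6 genes fell over maturation in stressed seeds and 3 fell in non-stressed seeds. Of all probe sets 27.1% and 30.3% were called lower. Both gene counts depend on the probe set used. A second one of ICL1 gave -0.436 in stressed seeds (limma adjusted p = 0.0805) and was not called. A second one of GAPC1 gave -1.63 in non-stressed seeds (limma adjusted p = 5.07e-08), past both limits. The median stress difference of the 6 genes was -0.13 at R6, 0.61 at R7 and 0.56 at R8.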

How the data were processed

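Whole-seed RNA was measured on Affymetrix Soybean Genome arrays. The deposited values are log2 signals per probe set, made by the authors with RMA (background correction, quantile normalization and summary over probes, through ArrayAnalysis.org). No versions were given in the sources used. Fold sizes at low signals depend on that background step. The labels give 16 arrays, and arrays have no read depth, so precision comes from 2 or 3 arrays per group.

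The table held 61170 probe sets, 37593 of them for soybean. Those with a mean log2 above 3 in at least 1 of the 6 groups were kept (19194). Probe sets were named through the platform annotation where it gave 1 gene (8677 of them, 6031 genes), and the brightest stood for a gene. A probe set name with s, x or a before its ending can match several transcripts.

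limma (3.58.1, R 4.3.3) was fitted with 1 mean per group, over the 11 arrays of R6 and R8 seeds, or all 16 where R7 entered, after it was tested on simulated data. P-values were two-sided and adjusted by Benjamini-Hochberg over kept probe sets. A call needed at least a 2-fold change and an adjusted p not above 0.05.

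Members and lists were chosen with earlier results of these data known, and list symbols were completed after the tables were opened. Up to 4 called genes per list and comparison, the 5 most alike and the 3 least alike genes by Pearson r were named, and aldehyde dehydrogenases by level. Ambiguous symbols (PK, MS), nodulins and kinases of PEPC were left out. Alternatives were other filters, normalizations, fits, probe sets, the replicate number as a block and leaving out each array.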

Additional observations from a re-analysis of the deposited data

Results flagged for a closer look

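The response to stress differed between R8 and R6 by at least 2-fold and at an adjusted p of 0.05 for 3 of the 15 list genes tested besides ADH2 and ALDH2B4, by the interaction term of the limma fit. For ALDH3H1 the response was 0.11 at R8 and 1.69 at R6, a difference of -1.58 (SE 0.24, limma adjusted p = 6.06e-04), and its second probe set gave -2.23. For PEPC7 it was 1.03 at R8 and -0.39 at R6, a difference of 1.43 (SE 0.16, limma adjusted p = 1.15e-04). For SS it was 0.66 at R8 and -0.57 at R6, a difference of 1.23 (SE 0.19, limma adjusted p = 6.93e-04). ALDH10A1 came just under 2-fold, at 0.99 (limma adjusted p = 4.81e-04), and its second probe set gave 1.33 (limma adjusted p = 4.71e-05). PEPC17 differed by 0.68 (limma adjusted p = 0.0419). Among all kept probe sets 20.3% were called in this comparison.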

How the results depend on the processing

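Of 457 planned settings with a value, leaving out arrays aside, 435 were rated as the same, 19 as moved, 3 as weaker and 0 as reversed. Same meant a shift within the pooled SD for ADH2 and ALDH2B4, an unchanged call for a list gene, or a similar count. A filter, the choice of arrays in the fit or a variance trend cannot move a log2 difference. Many of the 435 were therefore fixed in advance. With a limit of 5 on the mean signal ALDH2B4 was not kept, and the calls numbered 1767 at R6, 2142 at R7, 2385 for the R8 response minus the R6 response, 6542 between R8 and R6 in stressed and 7611 in non-stressed seeds, against 2856, 3563, 3887, 10437 and 12050. With every probe set of the 15 list genes (26 probe sets) the calls were 5 at R6, 3 at R7, 4 at R8, 9 for the difference of responses and 16 in either environment over maturation. Quantile normalization of the deposited values, and centring of each array on its median, left 1 list gene called at R8 in place of 2, since PEPC7 came to 0.95 and 0.99. The ADH2 difference of responses was 2.89 after quantile normalization. With centred medians ADH2 had -1.63 in stressed and -4.37 in non-stressed seeds over maturation, and ALDH2B4 0.69 and 0.57. That centring moved the median of all probe sets over maturation to 0.42 in stressed and 0.53 in non-stressed seeds, beside 0.10 and 0.15. The share of calls that were higher became 46.2% at R7 (35.6% as deposited), 61.2% in stressed (50.1%) and 61.5% in non-stressed seeds (51.8%). ICL1 in stressed seeds then fell by 0.84 over maturation, under 2-fold, and by 1.13 as deposited. By 6 group means, 3 of the 5 genes most like ALDH2B4 stayed. The cause of these shifts was not tested.

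Leaving out each array in turn, ADH2 ranged from 2.92 to 3.07 at R8 and from -4.78 to -4.63 over maturation in non-stressed seeds. ALDH2B4 ranged from -1.26 to -0.92 at R6, from -1.17 to -0.62 at R8, from -0.11 to 0.43 for the difference of responses and from -0.041 to 0.51 over maturation in non-stressed seeds, the last 3 ranges being set by the 2 non-stressed R8 arrays. Calls among list genes at R8 numbered 1 to 2. Where 1 array of a group remained, it was assumed to vary like the other groups. Same-numbered stressed and non-stressed arrays had deviations that correlated at -0.217 to 0.365 over 7 pairs. Whether the numbers pair the samples was not tested, and the main fit did not pair them. With the number as a replicate block, ADH2 differed by 3.01 and ALDH2B4 by -0.83 at R8, the calls numbered 1655 there (1633 without the block), and no call named here changed. Signals near background, as for ALDH2B4, and groups of 2 limit the precision.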
